A study of Mus musculus with 24 samples.

Results

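The 47 genes followed here make up the machinery that copies DNA and supplies its building blocks. Their mRNA levels were measured in MMH-D3 cells, a mouse hepatocyte line, over 46 h after a serum shock. Members were chosen by symbol, from probe sets to which the platform annotation gives that symbol alone. Of the 47 genes, 46 had such a probe set, and the set with the highest mean over the arrays stood for its gene. Chaf1a had none and is only named. The whole array held 18193 genes with a probe set of 1 symbol. Of these, 9825 genes, among them 45 members, reached a log2 value of 5 on at least 6 arrays and were tested.

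DNA replication begins when the origin recognition complex, with Cdc6 and Cdt1, loads the Mcm2 to Mcm7 ring onto origins in G1, a step called licensing. Cdc45 and the GINS complex turn the ring into an active helicase. Polymerase alpha with its primase lays primers, clamp loaders set the PCNA ring on them, polymerases delta and epsilon extend them, and Fen1 and Lig1 join the fragments. Ribonucleotide reductase, thymidylate synthase, thymidine kinase and dUTPase supply the deoxynucleotides. Many of these genes are known targets of E2F transcription factors, which are released when cyclin and kinase complexes phosphorylate the retinoblastoma protein. Adult hepatocytes are mostly quiescent and re-enter the cycle after injury or partial hepatectomy.

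The study profiled circadian time in MMH-D3 cells with 24 Affymetrix arrays, 1 for each time point from 12 to 58 h after the shock in steps of 2 h. MMH lines are immortalized hepatocytes from livers of mice with a transgene for a truncated Met receptor. All 24 samples shared the same history: growth to confluence, 14 days in medium with 2% DMSO to differentiate, then the serum shock. No unshocked sample was among them, so the earliest array at 12 h is the only starting point. Values are log2 expression values made with GCRMA, where a difference of 1 is a 2-fold change. With 1 array per hour, the repeats of a condition are neighbouring hours. The arrays were taken as 6 consecutive blocks of 8 h with 4 arrays each, and nothing in the labels says that they came from separate cultures. The p-values therefore rest on the spread between arrays within blocks, which may be technical and also holds any change within 8 h. Members share the same arrays, so the number that move together describes these arrays and is no count of independent repeats.

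The arrays had a median log2 value over the tested probe sets between 8.96 at 40 h and 9.14 at 46 h. The 40 h array stood apart with the lowest median, the highest mean of the hybridization spikes (11.93, against 10.12 at 30 h) and the highest 18S signal (4.05, against a median of 2.90). Of 10 hepatocyte markers, 8 had a probe set and all 8 were tested, among them Alb at a mean of 15.97 and Hnf4a at 11.93. Bile duct markers were also present, with Krt19 at 15.44 and Krt7 at 12.53. All 7 fibroblast and stellate markers and all 5 endothelial markers lay below the test's minimum level. Of 5 macrophage markers, Cd68 (6.15) and Csf1r (5.36) were tested, and Cd68 was higher in the last block than in the first (0.98 ± 0.28). Its part in the members' course was not tested.

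The mean of the 45 members tested, each taken about its own mean, went from -0.52 at 12 h to its highest value, 0.61, at 26 h. It lay at 0.03 at 32 and 34 h, at 0.22 at 36 h and at 0.28 at 42 h, and at its lowest, -0.62, at 48 h. The highest of the 24 arrays was the 26 h array for 35 of the 45 members tested, or 77.8% of them, against 4.41% of all genes tested. The lowest was the 48 h array for 28 members (62.2%, against 3.72% of all genes) and the 12 h array for 10 (22.2%, against 6.20%). Over the 6 blocks, 41 of 45 members changed by limma's moderated F test with Benjamini-Hochberg adjustment over all probe sets tested, and 62.8% of all genes did. Mcm10 (adjusted p = 0.0574), Gins1 (0.287), Gins3 (0.0645) and Orc6 (0.0532) did not pass. The 20 to 26 h block held the highest mean for 40 members. The 36 to 42 h block held it for the other 5, which were Cdt1, Mcm10, Rfc2, Pold1 and Pole.

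**Figure D1:**
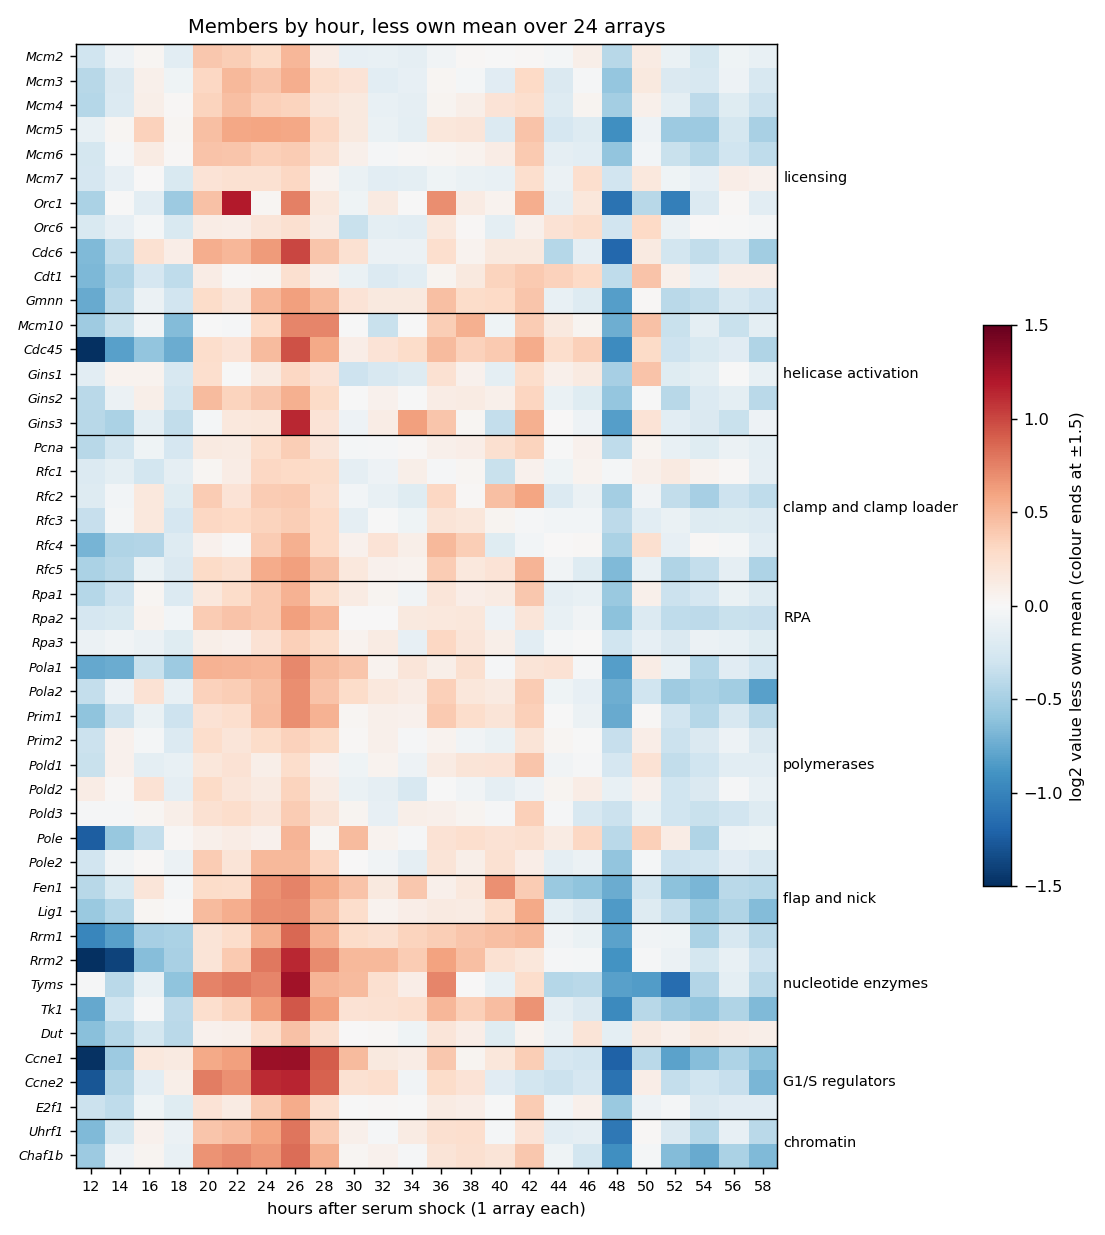
Log2 value of each of the 46 measured members on each of the 24 arrays, less the member's own mean, with members ordered by role (vertical axis) and arrays by hours after serum shock (horizontal axis). Red is above and blue below the member's mean; the columns at 20 to 28 h are red across roles, and the 12 h and 48 h columns are blue.

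Between 12 to 18 h and 20 to 26 h, 39 of the 45 members rose and 0 fell (limma, adjusted over all genes tested). Of all genes, 6.95% rose and 6.12% fell in this comparison. The median change was 0.60 for the members and -0.03 for all genes, and all 45 members had a positive estimate. Pold2, Pold3, Orc6, Mcm10, Gins1 and Gins3 did not pass. Without the 12 h array the count was 32, and the median change was 0.51.

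All 5 nucleotide enzymes rose, with a median of 1.15. Rrm2, the small and cell cycle-regulated subunit of ribonucleotide reductase, stood at 11.10, 11.46, 12.21 and 12.36 at 12, 14, 16 and 18 h. It then stood at 13.04, 13.24, 13.63 and 13.97 at 20, 22, 24 and 26 h. The groups did not overlap, and each array was higher than the one before. The change was 1.69 ± 0.23 (SE of the fit, 4 arrays per block), a 3.22-fold rise (adjusted p = 4.23e-05). Between the single arrays at 12 and 26 h it was 7.34-fold. Rrm1, the large subunit of the same enzyme, rose by 1.15 ± 0.15 (adjusted p = 3.14e-05), from 10.18 at 12 h to 12.02 at 26 h. Tk1, the thymidine kinase of the salvage route, rose by 0.91 ± 0.17 (adjusted p = 0.000828). Dut, which removes dUTP, had the smallest span of the role and rose by 0.64 ± 0.10 (adjusted p = 0.000123). Its other probe set did not pass (0.30 ± 0.11, adjusted p = 0.0736). Tyms, which makes dTMP from dUMP, rose by 1.17 ± 0.21 (adjusted p = 0.000617), but its signal was dim. It reached 5 on 14 arrays, its lowest, median and highest values were 3.97, 5.04 and 6.37, and its mean at 44 to 50 h was 4.49. Its 3 other probe sets had means of 2.18, 2.17 and 2.17, at the lowest value of the table, so the size of its change is uncertain.

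All 3 G1/S regulators rose, with a median of 1.37. Ccne1, the cyclin E1 partner of Cdk2, stood at 6.70, 7.65, 8.34 and 8.32 from 12 to 18 h and at 8.75, 8.81, 9.47 and 9.48 from 20 to 26 h. It rose by 1.37 ± 0.28 (adjusted p = 0.00222), with most of its climb already made by 16 h. Its probe set carries the suffix _x_at, which marks probes that may match other sequences. A further Ccne1 probe set with no such suffix rose by 1.81 ± 0.26. Ccne2, cyclin E2, rose by 1.38 ± 0.25 (adjusted p = 0.00078), and its lowest, median and highest arrays were 8.58 at 12 h, 9.75 and 11.00 at 26 h. E2f1, an activating E2F, had the smallest change of the role, 0.56 ± 0.12 (adjusted p = 0.0038), with all arrays between 7.41 and 8.53.

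**Figure D2:**
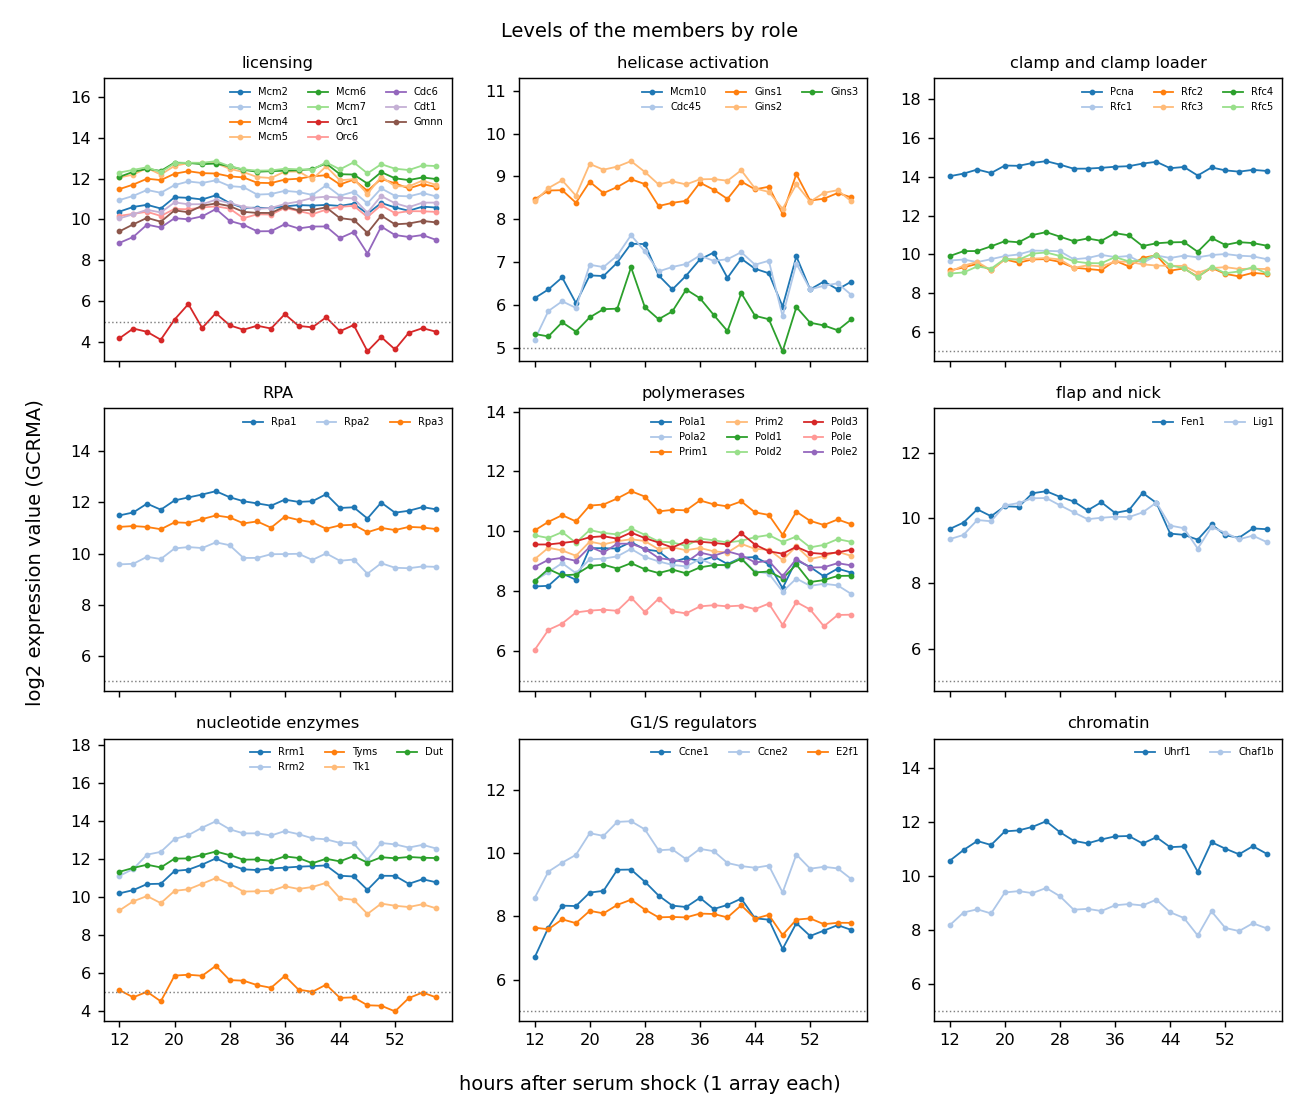
Log2 expression value (vertical axis) of the 46 measured members against hours after serum shock (horizontal axis), 1 panel per role, 1 line per gene and 1 point per array, with a dotted line at 5 where the panel reaches it. Rrm2 climbed from 11.10 at 12 h to 13.97 at 26 h, while Orc1 and part of the Tyms profile lay below 5.

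Of the 10 licensing genes tested, 9 rose. All 6 subunits of the Mcm2 to Mcm7 ring rose together and by similar amounts, from 0.39 ± 0.10 for Mcm7 to 0.60 ± 0.13 for Mcm3. A second Mcm2 probe set did not pass (0.30 ± 0.13, adjusted p = 0.148), while the other tested sets of Mcm3 to Mcm7 did. Cdc6, which helps load the ring, had the largest span of the role. It stood at 8.86, 9.15, 9.75 and 9.61 from 12 to 18 h and at 10.06, 10.01, 10.15 and 10.51 from 20 to 26 h, without overlap, a rise of 0.84 ± 0.21 (adjusted p = 0.00932). Gmnn, the inhibitor that binds Cdt1, rose by 0.78 ± 0.15 (adjusted p = 0.00105). Cdt1 itself, its target, rose by 0.54 ± 0.13 (adjusted p = 0.00789). Orc6, a subunit of the origin recognition complex, was nearly flat, with all arrays between 10.06 and 10.70, and had an estimate of 0.31 ± 0.11 (adjusted p = 0.0545). Orc1, the largest subunit of that complex, was not tested. It reached 5 on 5 of 24 arrays, and its lowest, median and highest values were 3.56 at 48 h, 4.68 and 5.87 at 22 h.

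Of the 5 genes of helicase activation, Cdc45 and Gins2 rose. Cdc45, which binds the Mcm ring at firing origins, had the second largest change of all members, 1.39 ± 0.23 (adjusted p = 0.000289). Its arrays went from 5.18, 5.86, 6.08 and 5.93 to 6.94, 6.88, 7.15 and 7.63 between the blocks, without overlap. Gins2 rose by 0.61 ± 0.11 (adjusted p = 0.00106). The estimates for Mcm10 (0.64 ± 0.23, adjusted p = 0.0662) and Gins3 (0.71 ± 0.24, adjusted p = 0.0507) were as large, with wider errors. Gins1 changed least of the role (0.24 ± 0.15, adjusted p = 0.296). For Gins3, a dimmer gene with arrays between 4.92 and 6.88, the other probe set rose by 0.77 ± 0.14 (adjusted p = 0.000994).

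All 6 genes of the clamp and its loader rose by the probe set that stood for each. For the loader, other probe sets also had positive estimates, but not all passed. Both others of Rfc2 (adjusted p = 0.293 and 0.182), the other of Rfc3 (0.118) and a further set of Rfc1 (0.0759) did not. Another set of Rfc1 (0.0464) and the other of Rfc4 (0.0085) did. Pcna, the sliding clamp, had arrays between 14.03 at 12 h and 14.80 at 26 h and rose by 0.48 ± 0.09 (adjusted p = 0.000743). Among the subunits of replication factor C, Rfc5 rose most (0.73 ± 0.13, adjusted p = 0.00058). Rfc1, the large subunit, rose least (0.38 ± 0.09, adjusted p = 0.00896), and its arrays spanned 9.55 to 10.19. The single-strand binding proteins Rpa1, Rpa2 and Rpa3 rose by 0.56 ± 0.11, 0.57 ± 0.11 and 0.29 ± 0.09.

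Of the 9 polymerase genes, 7 rose. Pola1, the catalytic subunit of polymerase alpha, stood at 8.16, 8.19, 8.60 and 8.39 from 12 to 18 h and at 9.45, 9.44, 9.43 and 9.65 from 20 to 26 h. The blocks did not overlap, and the rise was 1.16 ± 0.16 (2.23-fold, adjusted p = 4.14e-05). The other subunits of that complex, Pola2, Prim1 and Prim2, rose by 0.55 ± 0.13, 0.74 ± 0.14 and 0.39 ± 0.10. Pole, the catalytic subunit of polymerase epsilon, rose by 0.73 ± 0.20 (adjusted p = 0.0185), from a 12 h value of 6.04 that was its lowest. Its partner Pole2 rose by 0.49 ± 0.11 (adjusted p = 0.00469). The estimates for polymerase delta were small. Pold1, its catalytic subunit, rose by 0.32 ± 0.09 (adjusted p = 0.0299), while Pold2 (0.19 ± 0.08, adjusted p = 0.155) and Pold3 (0.24 ± 0.08, adjusted p = 0.0627) did not pass. For Pold1 and Pold3 the call depended on the probe set. A second Pold1 probe set did not pass (0.42 ± 0.15, adjusted p = 0.0797). Of the other Pold3 probe sets, one passed (0.32 ± 0.10, adjusted p = 0.0483) and one did not (0.23 ± 0.10, adjusted p = 0.143). All arrays of Pold2 lay between 9.47 and 10.10.

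Fen1, the flap nuclease, rose by 0.61 ± 0.15 (adjusted p = 0.0073), and Lig1, the ligase that seals the nicks, by 0.85 ± 0.15 (adjusted p = 0.000527). Uhrf1, which brings Dnmt1 to newly copied DNA, rose by 0.80 ± 0.18 (adjusted p = 0.00384). Chaf1b, a subunit of the chromatin assembly factor that loads histones behind the fork, rose by 0.89 ± 0.16 (adjusted p = 0.000565).

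The promoters of these genes were examined for letters known to be bound by E2F factors, since the members moved together. The RefSeq promoter table (GRCm38.p6, 250 bases before to 50 after each gene start) held 39 of the 47 members. The motif searched was TTTNNCGC with C or G at each N, which gives 4 forms, on both strands. It was present for 15 of the 39 members (38.5%), for 7 of 22 other replication genes (31.8%), for 1 of 17 mitosis genes (5.88%) and for 704 of 27025 genes in the table (2.60%). The 15 members were Mcm3, Mcm5, Mcm6, Mcm7, Orc1, Cdc6, Cdt1, Gins3, Rfc3, Pola1, Pold1, Pold3, Pole2, Lig1 and Uhrf1. The letters TTTGAA, the core of the cell cycle homology region known from mitosis genes, had the opposite distribution. They were in 12.8% of the members' promoters, 76.5% of those of the mitosis genes and 20.2% of all genes. CCAAT was in 59.0%, 94.1% and 41.1%. A match is a description of letters and shows no binding. Members with and without an E2F match had overlapping rises. The median was 0.51 (range 0.24 to 1.16) for the 14 tested members with a match and 0.64 (0.19 to 1.69) for the 23 without.

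The 200 bases before the start are printed, 5′ to 3′ on the gene's own strand, for the 5 members that had a match in this stretch and the largest spans over the blocks. Capitals mark the matches, and a run of 12 capitals is a pair of matches on opposite strands that overlap by 4 bases. In Mcm6 such a pair is followed by 1 more match. The sequences are from chrX:93632156-93632355 (minus strand) for Pola1, chr11:98907951-98908150 (plus) for Cdc6, chr8:75109309-75109508 (plus) for Mcm5, chr17:56304113-56304312 (plus) for Uhrf1 and chr1:128359706-128359905 (minus) for Mcm6.
Pola1: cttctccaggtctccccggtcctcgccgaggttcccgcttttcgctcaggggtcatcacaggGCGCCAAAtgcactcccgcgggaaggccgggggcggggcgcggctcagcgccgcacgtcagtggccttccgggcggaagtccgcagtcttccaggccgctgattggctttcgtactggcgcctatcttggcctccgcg
Cdc6: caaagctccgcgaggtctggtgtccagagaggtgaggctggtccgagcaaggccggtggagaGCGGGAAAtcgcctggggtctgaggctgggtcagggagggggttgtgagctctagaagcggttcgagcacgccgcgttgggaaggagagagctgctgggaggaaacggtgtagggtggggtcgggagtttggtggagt
Mcm5: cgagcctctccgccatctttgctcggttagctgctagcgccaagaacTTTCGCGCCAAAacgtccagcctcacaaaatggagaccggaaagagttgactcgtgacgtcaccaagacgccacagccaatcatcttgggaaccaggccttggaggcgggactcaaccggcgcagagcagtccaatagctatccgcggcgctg
Uhrf1: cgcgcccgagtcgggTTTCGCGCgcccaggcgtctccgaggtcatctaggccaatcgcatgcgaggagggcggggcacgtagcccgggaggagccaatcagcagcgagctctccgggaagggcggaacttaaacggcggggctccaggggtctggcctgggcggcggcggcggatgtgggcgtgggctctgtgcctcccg
Mcm6: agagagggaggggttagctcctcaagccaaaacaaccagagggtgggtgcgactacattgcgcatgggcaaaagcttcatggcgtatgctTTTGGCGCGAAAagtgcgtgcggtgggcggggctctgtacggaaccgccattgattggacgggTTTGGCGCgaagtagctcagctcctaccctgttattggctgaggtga

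The hours of onset, crest and decline were read from running means of 3 arrays. They are given for the 18 members that changed over the blocks and spanned at least 1 log2 unit in that mean. No gene of the clamp, the clamp loader or the single-strand binding proteins was among them, so these roles have no hours among the 18. Onset is the hour from which a profile stayed above halfway from its earlier low to its crest, and decline the first hour below halfway to its later low. Onset was narrow among these 18. It fell at 18 h for 9 genes, at 20 h for 8 and at 22 h for Tk1, with a median of 19 h. Of the members outside the 18, Orc6 (42 h), Cdt1 (36 h), Rfc2 (38 h) and Pold1 (36 h) had later onsets in this reading. The rest had onsets between 18 and 22 h. From means of 5 arrays, the onsets of these 4 genes were 20, 22, 20 and 34 h. The crest came at 24 h for 7, at 26 h for 10 and at 28 h for Pole. Median onsets by role in this reading lay between 18 h (3 licensing genes and 2 cyclins) and 20 h (4 nucleotide enzymes and Cdc45). Arrays lay 2 h apart. The hour of decline varied more. In this reading it came at 32 or 34 h for 7 genes, namely Mcm5, Cdc6, Pola1, Prim1, Ccne2, Uhrf1 and Chaf1b. It came between 42 and 46 h for the other 11, which included all 4 nucleotide enzymes with a reading (Rrm1, Rrm2, Tyms and Tk1), both genes that finish lagging strand fragments (Fen1 and Lig1), Gmnn and Cdc45. Dut, the remaining nucleotide enzyme, was outside the 18. It declined at 30 h in this reading, from 12.25 at its crest to a later low of 11.87, and at 30 or 32 h in the other readings given below. These hours have no error estimate, and an hour of decline depends on how low the later arrays lie. The hours were also read from single arrays, from means of 5 arrays and without the 40 h and 48 h arrays. From single arrays and from means of 5 arrays, the median onset of the licensing genes was 20 h, as for the nucleotide enzymes. In all 4 readings, Cdc6 and Ccne2 had declined by 36 h, and 8 genes (Cdc45, Fen1, Gmnn, Lig1, Pola2, Rrm1, Rrm2 and Tk1) declined at 42 h or later. The other 8 with a reading changed with how they were read. Uhrf1 and Chaf1b, for instance, declined at 32 h here and at 44 h from single arrays, Prim1 at 32 h and 46 h, and Ccne1 at 42 h here and at 32 h without the 40 h and 48 h arrays.

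Between the 26 h and 28 h arrays all 45 went down (median -0.22), and from 28 to 30 h 44 did. Of all genes, 46.6% and 53.6% went down in these steps. The block means of all 45 were lower at 28 to 34 h than at 20 to 26 h, with a median difference of -0.26, but limma called 0 members higher and 0 lower. Of all genes, 0.0712% were called higher and 0.0509% lower. At an unadjusted p under 0.05 there were 23 of 45 members and 1058 of all 9825 genes. The smallest adjusted p among the members was that of Mcm2 (0.0530, difference -0.45 ± 0.09). Ccne2 had the largest estimate (-0.60 ± 0.25), and Rrm2 had one of -0.11 ± 0.23. From there to 36 to 42 h limma again called 0 members in either direction, as it did for all genes (0% each way). An unadjusted p under 0.05 was found for 3 of 45 members and 1276 of all 9825 genes, a lower share for the members. The median difference was 0.07, and between the single arrays at 34 and 36 h 40 of 45 members went up (median 0.23). In the same step 60.7% of all genes went up (median 0.04). Cdt1 went from 10.63 to 10.95 in block mean, the highest of its 6 blocks (difference not called).

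Between 36 to 42 h and 44 to 50 h, 23 members fell and 0 rose. Of all genes, 12.7% fell and 20.5% rose. The median change was -0.35 for the members and 0.04 for all genes, and 41 of 45 estimates were negative. Fen1 had the smallest p. It stood at 10.17, 10.24, 10.78 and 10.47 from 36 to 42 h and at 9.53, 9.49, 9.34 and 9.82 from 44 to 50 h, without overlap, a change of -0.87 ± 0.14 (adjusted p = 0.000104). Its other probe set changed by -0.96 ± 0.14. Tk1 had the largest fall, -0.93 ± 0.17 (adjusted p = 0.000215), from 10.55, 10.41, 10.51 and 10.73 to 9.92, 9.84, 9.10 and 9.64, also without overlap. Rrm1 fell by 0.68 ± 0.15 (adjusted p = 0.00175) after 4 arrays between 11.53 and 11.65. Ccne1 changed by -0.79 ± 0.28 (adjusted p = 0.0361), Gmnn by -0.64 ± 0.15 (adjusted p = 0.00201) and Lig1 by -0.62 ± 0.15 (adjusted p = 0.00295). Rrm2 had an estimate of -0.61 ± 0.23 that just missed the threshold (adjusted p = 0.0503). Its other probe sets both passed, at -0.83 ± 0.24 (adjusted p = 0.0122) and, with the suffix _x_at, -0.76 ± 0.23 (adjusted p = 0.0144).

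Estimates for the fall differed within complexes. For the Mcm ring and the clamp loader, members at either end are named, and the others lay between them and did not pass. Within the Mcm ring, Mcm5 (-0.51 ± 0.15) and Mcm6 (-0.38 ± 0.10) fell, while Mcm2 (-0.05 ± 0.09) and Mcm7 (0.01 ± 0.10) stayed near 0 and 3 other Mcm7 probe sets had estimates between -0.03 and -0.01. Within the clamp loader, Rfc2 (-0.56 ± 0.12) and Rfc5 (-0.57 ± 0.13) fell, and Rfc1 had an estimate of 0.07 ± 0.09. Gmnn fell, and Cdt1, which it inhibits, had an estimate of -0.06 ± 0.13. Dut (-0.01 ± 0.10), Orc6 (0.10 ± 0.11) and Pold2 (0.10 ± 0.08) were also near 0. Differences between members were not tested.

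**Figure D3:**
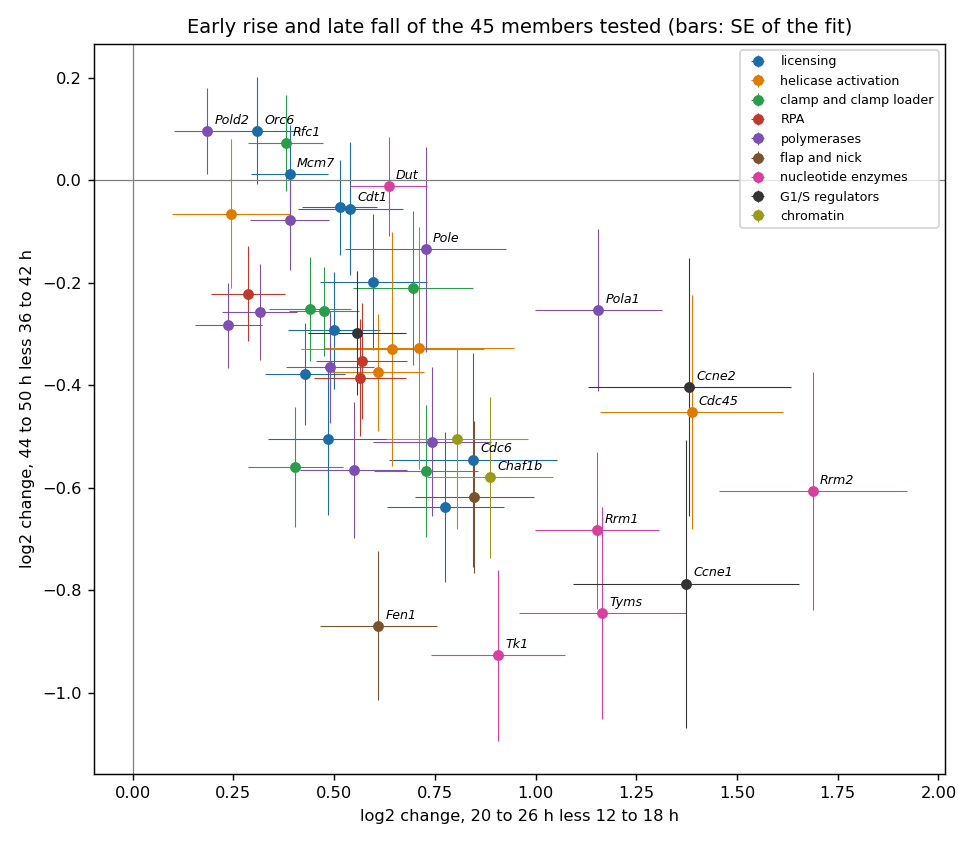
Log2 change from 12 to 18 h to 20 to 26 h (horizontal axis) against that from 36 to 42 h to 44 to 50 h (vertical axis) for the 45 members tested, 1 point per gene coloured by role, with bars of 1 SE of the fit. All points lie right of 0; Rrm2 is farthest right at 1.69, Tk1 and Fen1 are lowest at -0.93 and -0.87, and Pold2, Orc6, Rfc1 and Mcm7 lie above 0 on the vertical axis.

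Much of this fall lay on 1 array. At 48 h, 44 of 45 members were below both neighbouring arrays, against 39.9% of all genes. The median gap to the mean of the neighbours was -0.56 for the members and -0.02 for all genes. Cdc45 had the deepest gap, with 7.03, 5.74 and 6.96 at 46, 48 and 50 h. At 50 h, 44 members were higher again, with a median step of 0.58, and 52.9% of all genes were higher (median 0.02). The 19 mitosis genes were all below both neighbours at 48 h too, with a median gap of -1.01. The array's other values were within the range of the rest. Its median correlation with the other arrays was 0.979 (range 0.972 to 0.990), its median level 9.13 and its 3′ to 5′ difference for Actb 0.39 (range 0.32 to 0.51). With 1 array at that hour, the cells' state and the sample cannot be told apart. Without the 48 h array, 11 members fell (Mcm6, Gmnn, Rfc2, Rfc5, Pola2, Fen1, Lig1, Rrm1, Tyms, Tk1 and Chaf1b), the median change was -0.18 and 35 estimates were negative. On the 42 h array 35 members were above both neighbours, against 40.7% of all genes. Without that array, 15 members fell. The step from 42 to 44 h, which does not involve 48 h, was downward for 40 of 45 members with a median of -0.37, against 50.0% of all genes.

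From 44 to 50 h to 52 to 58 h limma called 0 members in either direction (of all genes, 0.0102% higher and 0.0305% lower). An unadjusted p under 0.05 was found for 3 of 45 members and 1080 of all 9825 genes, a lower share for the members. Neither of these last blocks held the highest mean of any member, although the single highest array of Orc6, Cdt1 and Gins1 was that at 50 h. The 24 h model called 1 member rhythmic. This was Rfc1, with an amplitude of 0.17 and a peak at 26.2 h (limma F test, adjusted p = 0.0486), while 2.77% of all genes were called. At an unadjusted p under 0.05 this model had 7 of 45 members and 2024 of all 9825 genes, a lower share for the members. The Rfc1 call was lost when any 1 of 17 of the 24 arrays was left out, and its profile was among the least like the other members'. With the arrays from 12 to 42 h alone, a span of little more than 1 cycle, 35 members were called. The share of all genes called in that setting was not computed, so the 35 cannot be set against it.

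The last block was compared with the first, which already held part of the early rise. The members went both ways, so that the median difference of -0.04 says little of any one gene. Between 12 to 18 h and 52 to 58 h, 6 members ended higher and 8 lower, while 25.4% of all genes ended higher and 19.9% lower. Higher were Rrm2 (0.87 ± 0.23), Cdc45 (0.62 ± 0.23), Dut (0.54 ± 0.10), Cdt1 (0.48 ± 0.13), Rrm1 (0.39 ± 0.15) and Rfc4 (0.37 ± 0.15). Lower were Mcm5 (-0.53 ± 0.15), Pola2 (-0.50 ± 0.13), Chaf1b (-0.46 ± 0.16), Fen1 (-0.41 ± 0.15), Mcm6, Rfc2, Pold3 and Pold2 (from -0.32 to -0.21). For Dut, a second probe set had the opposite sign. Against the 12 h array alone, where the members' mean lay at -0.52 about their own means over the 24 arrays, the last 4 arrays were higher, at -0.28, -0.31, -0.19 and -0.30. Of the 14 genes called between the first and last blocks, 7 were called in all alternatives run. Cdc45, Chaf1b, Fen1, Pold2, Rfc2, Rfc4 and Rrm1 lost the call in some. The counts were sensitive to single arrays. The number higher was 3 without the 12 h, the 52 h or the 56 h array, and the number lower was 5 without the 14 h array and 4 without the 16 h or the 54 h array.

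Other genes of the pathway moved with the members in part. Of 27 further replication genes, 24 were tested, 14 rose at 20 to 26 h and 0 fell. The shares of all genes there were 6.95% and 6.12%. Chtf18, of an alternative clamp loader, had the largest span and rose by 1.96 ± 0.33. Dbf4, the activator of the Cdc7 kinase, rose by 1.07 ± 0.17, and Clspn, a fork protein of the checkpoint, also rose (adjusted p = 0.00106). At 44 to 50 h, 7 of the 24 fell (29.2%, against 12.7% of all genes) and 3 rose (12.5%, below the 20.5% of all genes). The 3 that rose, named after their values were seen, were the origin recognition subunits Orc2 (0.54 ± 0.10), Orc4 (0.50 ± 0.08) and Orc5 (0.36 ± 0.07). None of these 3 rose at 20 to 26 h, where their estimates lay between -0.10 and -0.03. Of 21 further nucleotide genes, 19 were tested, mostly of purine and pyrimidine synthesis. At 20 to 26 h 6 rose and 1 fell (Cmpk1, -0.33 ± 0.07), with a median of 0.11 beside 1.15 for the 5 member enzymes. The largest spans were those of Shmt1, Dck and Cad. Dck, the deoxycytidine kinase, rose by 0.80 ± 0.16 at 20 to 26 h and changed by -0.47 ± 0.16 at 44 to 50 h, and Shmt1, of folate metabolism, had estimates of -0.12 ± 0.13 and -0.39 ± 0.13, of which the second passed. At 44 to 50 h 3 of the 19 fell (15.8%) and 5 rose (26.3%), near the shares of all genes (12.7% and 20.5%). The 5 were Rrm2b, Tk2, Ctps, Cad and Atic, named after their values were seen. Rrm2b, the p53-inducible small subunit of ribonucleotide reductase that serves outside S phase, went up by 0.70 ± 0.08 (adjusted p = 1.83e-06) in the blocks where Rrm1 fell. Its estimate at 20 to 26 h, when Rrm2 rose, was -0.02 ± 0.08. Tk2, the mitochondrial thymidine kinase, went up by 0.38 ± 0.10 where Tk1 fell. The difference between these pairs was not tested.

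Of 17 E2F and S phase regulators, 13 rose at 20 to 26 h and 8 fell at 44 to 50 h, in each case with 0 in the other direction. The shares of all genes were 6.95% higher at 20 to 26 h and 12.7% lower at 44 to 50 h. Ccna2, the cyclin of S phase and G2, rose by 2.67 ± 0.34 (adjusted p = 2.24e-05). The repressive E2f8 and E2f7, themselves E2F targets, rose by 2.35 ± 0.36 and 1.92 ± 0.33. Of 10 tested G1 cyclins and kinase inhibitors, 5 rose and 0 fell at 20 to 26 h, and 1 rose and 3 fell at 44 to 50 h. By correlation with the members' mean profile over the 24 arrays, the nearest genes outside the members were Slbp (r = 0.976), Asf1b (0.966), Dnajc9 (0.965), Tcf19 (0.950) and Hat1 (0.936). The members themselves had a median r of 0.896 with that profile, which they make up, and the least like it were Pold2 (0.51), Rfc1 (0.53), Cdt1 (0.54) and Orc6 (0.54).

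The mitosis list, of 19 measured genes, is set beside the members. All 19 rose at 20 to 26 h, against 6.95% of all genes, with a median of 3.11. In running means at 12 h these genes lay between 2.50 and 8.67. Several were below 5, some not far above the lowest value of the table (2.17). Sizes measured from the first block, here and below, are therefore uncertain. The highest array of the list's mean profile was that at 26 h (1.34), as for the members, but the mean stayed high, at 1.30 at 36 h and 1.21 at 42 h. In running means of 3 arrays, 6 of the 19 genes crested at 28 h and the other 13 between 36 and 40 h. From 20 to 26 h to 28 to 34 h all 19 had a positive estimate (median 0.60) where all 45 members had a negative one. Neither set of estimates passed limma's adjusted threshold. At 44 to 50 h 11 of the 19 fell, against 12.7% of all genes. At 52 to 58 h all 19 were higher than at 12 to 18 h, with a median of 2.68, beside -0.04 for the members. Whether more cells were in S phase or each held more of these mRNAs cannot be told apart in bulk RNA. The 8 hepatocyte markers had a median change of -0.19 at 20 to 26 h, where 1 fell, and of -0.75 from the first to the last block, where 6 fell and 1 rose. Their part in the course of the members was likewise not tested.

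**Figure D4:**
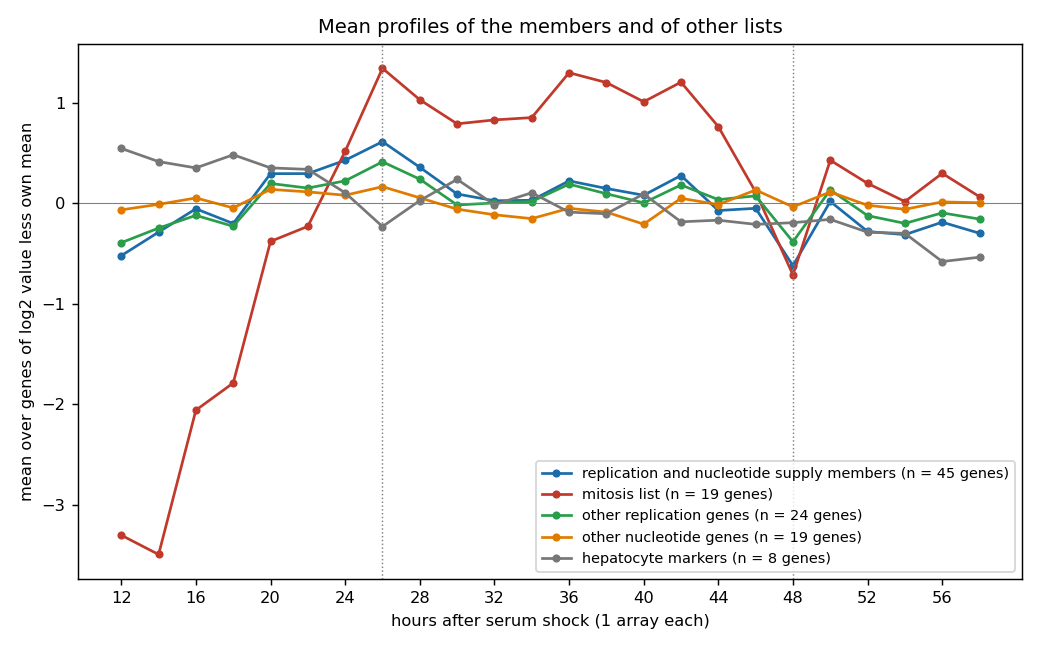
Mean over genes of the log2 value less each gene's own mean (vertical axis) against hours after serum shock (horizontal axis, 1 array per point) for the 45 members tested and 4 other lists, with dotted lines at 26 and 48 h. The members peak at 26 h (0.61) and are lowest at 48 h (-0.62), while the mitosis list starts far lower at -3.30, is also highest at 26 h (1.34) and is at 1.21 at 42 h.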

How the data were processed

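Total RNA of 24 MMH-D3 samples was labelled with biotin and hybridised to 1 Affymetrix array each. The authors deposited log2 values from GCRMA, as the submitters' processing notes name it (version not given in the sources used here). That the scale is log2 was read from the values. GCRMA adjusts background by probe sequence and normalizes arrays together, so dim genes collect at a floor (2.17, 41.2% of values). Of 45101 probe sets, 64 controls were left out, and 18526 with log2 of at least 5 on at least 6 arrays were kept. limma 3.58.1 in R 4.3.3 fitted 6 blocks of 4 arrays, with the variance prior following intensity, and separately a 24 h cosine and sine with linear drift. P-values were adjusted by Benjamini-Hochberg over these probe sets, at a threshold of 0.05. Calls over genes use 1 probe set per gene. The fits were tested on simulated data. The number of arrays limits the precision.

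The members, lists and blocks were chosen with earlier results of these data known. All members are named by role; hourly values follow the largest and smallest spans of a role, with a few more given where a result turns on them. Of the further replication, nucleotide and S phase lists the 3 genes of largest span are named, others only where said, and so are the 5 genes most correlated with the members. The mitosis and G1 lists are given as counts. Alternatives were other filters, scalings, priors, blocks, drift terms, running means and each array left out. Promoters of 8 members and protein sequences were not analysed here.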

Additional observations from a re-analysis of the deposited data

How the results depend on the processing

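All changes below are counts of members among those tested. The rise at 20 to 26 h (39 members) was called for 32 to 42 when each array was left out in turn, and 32 of the 39 genes were called in all alternatives run. The count changed over the blocks was 39 to 45 with arrays left out, and 33 of the 41 genes were called throughout. The fall at 44 to 50 h (23) was 11 to 26 with arrays left out and 13 without the 40 h and 48 h arrays, an alternative chosen after seeing the data, and 11 of the 23 genes were called throughout. At 28 to 34 h against 20 to 26 h, where 0 were lower, 1 was lower with each array centred on its median, 1 with quantile normalization, 2 without the 40 h and 48 h arrays, and 0 to 3 with arrays left out. At 52 to 58 h against 12 to 18 h, the 6 higher became 3 without the filter on low values and 3 with quantile normalization (3 to 7 with arrays left out). The 8 lower became 4 without the filter (4 to 9 with arrays left out). The 1 rhythmic member became 0 without the filter, 0 with centred arrays, 0 with 1 variance prior for all probe sets, 35 with the arrays from 12 to 42 h only and 2 without the 40 h and 48 h arrays (0 to 3 with arrays left out). The cause of these moves was not tested, and the shares of all genes called under these alternatives were not computed. Median onset, crest and decline hours were 20, 26 and 44 h from single arrays and 20, 24 and 44 h from means of 5 arrays, against 19, 26 and 42 h. No called change turned its sign under these settings. Of 31 other tested probe sets of members that rose, 31 had the same direction and 24 passed, and of 15 for members that fell, 15 and 12. From the first to the last block, 12 of 13 had the same direction and 8 passed, and the exception in direction was a probe set of Dut. No paired analysis was possible because each time point had 1 array and no replicate number.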
